A study of Mus musculus with 6 samples.

Results

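Vtn encodes vitronectin, an adhesive glycoprotein of plasma and extracellular matrix. It is 1 of the 18193 genes that could be named on the 6 arrays of this comparison, and it was read by every probe set whose only gene symbol in the platform annotation is Vtn, 2 of 45037 in all. RNA was taken from palates of mouse embryos at embryonic day E13.5, while the palatal shelves grow. There were 3 arrays of Fz1-/-;Fz2-/- palates, called double-null here, and 3 arrays of Fz1-/-;Fz2+/+ palates, called Fz1-null, numbered 1 to 3 in each genotype. All 6 samples lacked Fzd1 by genotype and no wild-type palate was compared, so the comparison concerns the loss of Fzd2, a receptor for Wnt ligands, on top of the loss of Fzd1. The embryos were of a C57BL6/129 mixed background and of mixed gender in both genotypes, and no embryo, litter or pool is given for a sample, so p-values rest on a spread between arrays that may be partly technical.

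Vitronectin binds integrins such as alpha-v beta-3 and alpha-v beta-5 through an RGD motif, and its somatomedin B domain binds the urokinase receptor and the main inhibitor of plasminogen activators. It also holds back the terminal complement complex. The liver makes most of the plasma protein, and in the adult brain Vtn transcripts are best known from pericytes, the mural cells of capillaries. In avian embryos vitronectin has been described in the floor plate of the neural tube.

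Vtn was chosen for its difference between the genotypes, already seen in these arrays, so its levels are given as a description and no test of that difference is reported. Its brighter probe set, 1420484_a_at (designed from NM_011707), had log2 RMA values of 8.66, 9.12 and 8.88 in double-null arrays 1, 2 and 3, against 8.40, 8.07 and 8.22 in Fz1-null arrays 1, 2 and 3. All 3 double-null arrays lay above all 3 Fz1-null arrays, and the lowest double-null value stood 0.25 above the highest Fz1-null one. The means were 8.89 ± 0.23 in double-null and 8.23 ± 0.17 in Fz1-null palates (SD, n = 3 each), a log2 difference of 0.65 (limma's moderated SE 0.14), or 1.57-fold. Unless stated, each SE here and below is of the fit that does not pair arrays of the same number. It can therefore be wider than the spread of the pair differences. Values ranged over the arrays by 0.47 within the double-null group and by 0.33 within the Fz1-null group, so the difference of the means is larger than the spread within either genotype. In bulk tissue, more cells that make vitronectin and more of its RNA per cell cannot be told apart.

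The dimmer probe set, 1455098_a_at (designed from BB251864), ran the same way. It had log2 values of 7.85, 8.03 and 7.87 in double-null arrays 1, 2 and 3, against 7.61, 7.36 and 7.40 in Fz1-null arrays 1, 2 and 3. Again the groups did not overlap, with a gap of 0.24. The means were 7.91 ± 0.10 in double-null and 7.46 ± 0.13 in Fz1-null palates (SD, n = 3 each), so the dimmer probe set was 1.37-fold higher, by 0.46 on the log2 scale (SE 0.10). Both probe sets put the 6 arrays in the same order (Spearman rho = 1.00, Pearson r = 0.98, and r = 0.89 with the genotype means removed, n = 6 arrays). They read the same RNA, so their likeness speaks for the measurement of the transcript and not for the genotype. Over all 45037 probe sets, 2.79% lay higher and 1.73% lower in double-null palates without overlap, and since Vtn was picked from that contrast nothing is read from its place among them.

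**Figure D1:**
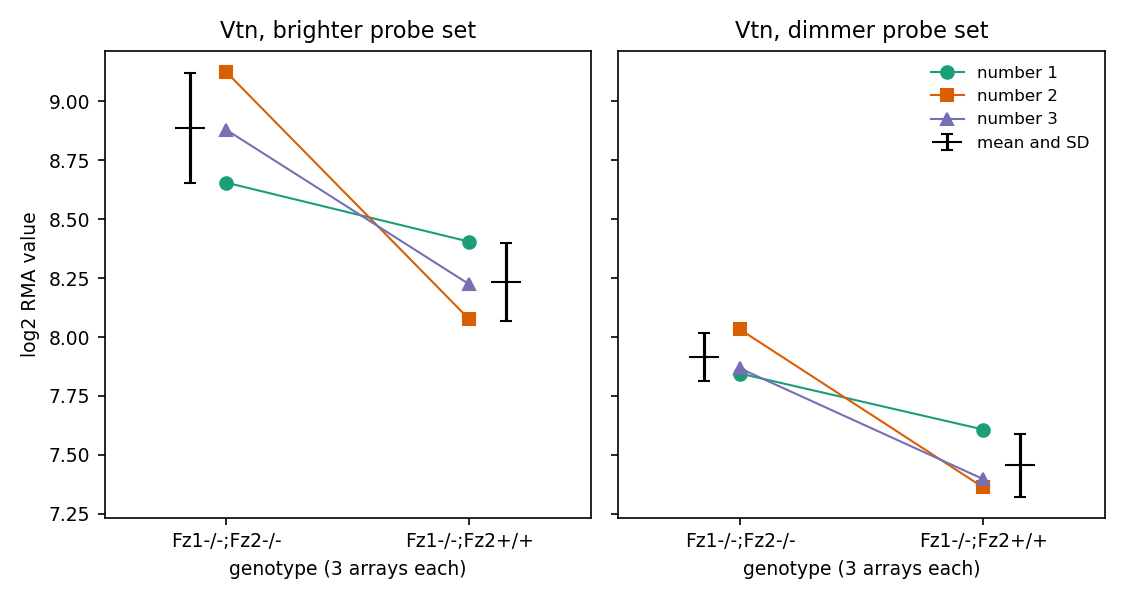
Log2 RMA values of the 2 Vtn probe sets (vertical axis) in double-null (Fz1-/-;Fz2-/-) and Fz1-null (Fz1-/-;Fz2+/+) palates, each array a point, arrays of the same number joined by a line, with the group mean and SD beside them (n = 3 each). Every line runs downward to the Fz1-null side, and the line of number 2 is the steepest, with 9.12 in double-null and 8.07 in Fz1-null for the brighter probe set.

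The size of the difference varied between the numbered pairs. For the brighter probe set it was 0.25 on the log2 scale (1.19-fold) in the pair numbered 1, 1.05 (2.07-fold) in the pair numbered 2 and 0.66 (1.58-fold) in the pair numbered 3. The dimmer probe set gave 0.24, 0.67 and 0.47 in the same order. The pair numbered 2 held both the highest double-null and the lowest Fz1-null value, and leaving out an array of it lowered the mean difference of the brighter probe set to 0.53 (double-null array 2) or 0.57 (Fz1-null array 2). Leaving out double-null array 1 gave 0.77, the highest of the 6 such values.

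Within the distribution of all probe sets, the brighter Vtn probe set stood at percentile 74.2, 80.3 and 78.1 in double-null arrays 1, 2 and 3, against 69.8, 64.8 and 67.3 in Fz1-null arrays 1, 2 and 3. Counted from the brightest probe set, these were ranks 11614, 8855 and 9856 in the double-null arrays and 13601, 15833 and 14716 in the Fz1-null arrays. The dimmer probe set stood at percentiles 61.1 to 63.9 in double-null and 52.1 to 56.9 in Fz1-null arrays. Vtn thus lay in the upper part of the signal range without being among the brightest transcripts. A rank by signal also depends on how well a probe set hybridises, so it does not place Vtn among other genes by transcript number. By its mean difference the brighter probe set ranked 22 of 45037 from the highest down, a description of the choice and no further evidence. The authors' deposited table lists the same sizes with the sign turned, as log2 fold changes of -0.65 and -0.46 for the brighter and the dimmer probe set, so a negative value there means higher in double-null palates.

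Vtn lies on mouse chromosome 11, as does Fzd2. The 250 bases before its annotated start, chr11:78498870-78499119 on the plus strand of GRCm38.p6 (RefSeq), are shown because they are the sequence next to the transcript whose level differed. Capitals mark the E-box letters CANNTG and the letters TATAAA, searched on both strands.
Vtn upstream: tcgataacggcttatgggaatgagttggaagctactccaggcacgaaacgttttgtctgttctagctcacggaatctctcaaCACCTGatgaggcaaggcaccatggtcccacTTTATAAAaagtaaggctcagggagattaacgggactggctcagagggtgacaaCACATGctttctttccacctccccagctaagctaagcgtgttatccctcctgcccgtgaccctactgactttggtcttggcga
The window holds 2 E-box matches, beginning 168 and 83 bases before the start, and 66.0% of the upstream windows of 27025 genes hold at least 1. It holds TATAAA once on each strand, in matches that overlap and begin 137 bases (minus strand) and 135 bases (plus strand) before the start, and 13.0% of all windows hold that word. The TCF/LEF words CTTTGAA or CTTTGAT and CTTTGTA or CTTTGTT, to which transcription factors of Wnt signalling bind, were not in the window, as they were not in most others (14.9% of windows hold 1 or more of them). The words AGATAA and TGATAA of GATA factors (17.0% of windows) and the GC box GGGCGG (32.9%) were absent as well. Its GC content was 50.4%, against a median of 52.0% over all windows. The arrays do not measure promoter activity, and a match of letters is no binding site.

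The genes beside Vtn on the chromosome differed by less than 0.10. On the side of lower coordinates, Sarm1, an adaptor that triggers axon degeneration, differed by 0.06 (SE 0.09) between double-null and Fz1-null palates, the folate transporter Slc46a1 by -0.02 (SE 0.08) and the carboxylate transporter Slc13a2 by 0.06 (SE 0.11). On the other side the homeobox gene Sebox differed by -0.09 (SE 0.08), Tmem199 by 0.05 (SE 0.08) and Poldip2 by -0.06 (SE 0.07). None of the 6 passed limma's test over all probe sets (adjusted p = 1.00 for each without the replicate block, and 0.97 or 0.98 with it). Poldip2 was the 1 of them whose groups did not overlap, on the lower side, where 1.91% of all genes lay. It averaged 9.95 in double-null and 10.02 in Fz1-null palates.

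Over the whole series no gene beyond Fzd2 passed. By limma with Benjamini-Hochberg adjustment over all probe sets, 0 of 45037 had an adjusted p under 0.05 in either direction (0% higher and 0% lower), and 431 had an unadjusted p below 0.05. With the replicate number as a block, 3 probe sets (0.00666%) passed, all lower, all of Fzd2, while the unadjusted p of 2121 was below 0.05. The brightest Fzd2 probe set had log2 values of 10.21, 10.53 and 10.20 in double-null arrays 1, 2 and 3, against 11.46, 11.60 and 11.64 in Fz1-null arrays 1, 2 and 3. Its difference of -1.25 (adjusted p = 0.217 without the block and 0.00889 with it) was near the same size in each pair (-1.25, -1.06 and -1.45), whereas that of Vtn was not. Where the Fzd2 probes lie relative to the deleted part was not analysed here. The brighter Fzd1 probe set averaged 7.47 in double-null and 7.39 in Fz1-null palates, both of which lack Fzd1 by genotype. Arrays of the same number correlated at 0.997 in each pair, above the 0.991 to 0.994 between arrays of the same genotype.

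Some arrays stood apart in ways other than the Fz2 genotype. Double-null array 2, with the highest Vtn value, read Xist, the RNA of the inactive X chromosome, at 7.49, against 12.74 and 12.20 in the other double-null arrays and 11.76, 12.43 and 12.35 in Fz1-null arrays 1, 2 and 3. The Y-linked gene Eif2s3y read 3.36, 7.84 and 5.30 in double-null arrays 1, 2 and 3, against a mean of 6.15 in the Fz1-null arrays, and was highest on the array where Xist was lowest. Without double-null array 2 the Vtn difference was 0.53. The pair numbered 3 stood apart by other tissues, with median differences of 0.78 for skeletal muscle genes, 0.92 for Hox genes and -0.47 for epithelial genes. Without double-null array 3 these 3 medians were -0.10, 0.02 and -0.09, and the Vtn difference was 0.66. The part of either departure in the Vtn difference was not tested. Palatal mesenchyme genes marked the tissue, with 13 of 13 measured above the array median on all 6 arrays.

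Receptor genes of vitronectin lay on both sides of 0. Of 9 measured integrin subunits 0 passed the test, 3 were higher and 6 lower in double-null palates, and their median log2 difference was -0.03, against -0.01 over all 18193 genes, of which 45.7% were higher. Itgav, the alpha-v chain common to most vitronectin receptors, had values of 10.64, 10.58 and 10.34 in double-null arrays 1, 2 and 3, against 10.71, 10.67 and 10.42 in the Fz1-null arrays. It was lower in each pair by less than 0.10, a difference of -0.08 (SE 0.11), while the arrays numbered 3 were the low ones in both genotypes. The beta chains that pair with it read differently among themselves. Itgb5 differed by -0.13 (SE 0.08), Itgb3 by 0.04 (SE 0.12), Itgb1 by -0.02 (SE 0.14) and Itgb6 by -0.03 (SE 0.11).

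Itgb8, whose product joins alpha-v in a receptor best known for freeing latent TGF-beta, was the 1 integrin whose groups did not overlap. It had values of 8.18, 8.06 and 7.91 in double-null arrays 1, 2 and 3, against 7.85, 7.87 and 7.76 in the Fz1-null arrays. The means were 8.05 in double-null and 7.83 in Fz1-null palates, a difference of 0.22 (SE 0.09; limma adjusted p = 1.00, and 0.97 with the block). Among all genes 2.74% lay higher without overlap. Its largest pair difference was in the pair numbered 1 (0.33), where that of Vtn was smallest. The alpha chains Itga8 (-0.07, SE 0.08), Itga5 (-0.06, SE 0.20), the fibronectin receptor chain, and Itga2b (0.03, SE 0.09), the platelet chain, lay near 0.

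In the plasminogen system, which vitronectin meets through its somatomedin B domain, 7 of 7 measured members were higher in double-null palates and 0 passed the test (smallest adjusted p = 1.00, and 0.97 with the block). Their median difference was 0.07, and none differed by more than 0.17. Thbd, thrombomodulin of the endothelial surface, was 1 of the 7 on the list without being part of plasminogen activation itself. It had values of 8.83, 9.02 and 9.01 in double-null arrays 1, 2 and 3, against 8.80, 8.62 and 8.90 in the Fz1-null arrays. The difference was 0.17 (SE 0.10). As for Vtn, the pair differences of Thbd were smallest in the pair numbered 1 and largest in the pair numbered 2 (0.03, 0.39 and 0.10). Serpinf2, the plasmin inhibitor alpha-2-antiplasmin, also differed by 0.17 (SE 0.11), but by -0.08 in the pair numbered 2. Plaur, the urokinase receptor, read 6.97 in double-null and 6.90 in Fz1-null palates without overlap (difference 0.07, SE 0.07). On that side 2.74% of all genes lay without overlap. The activators Plau (0.09, SE 0.09) and Plat (0.07, SE 0.11), plasminogen itself (Plg, 0.07, SE 0.07) and Serpinb2 (0.01, SE 0.09) differed by amounts near or below their errors, and Serpinb2 stayed under percentile 3 on every array. The main inhibitor of the activators, which vitronectin binds, was not analysed here.

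**Figure D2:**
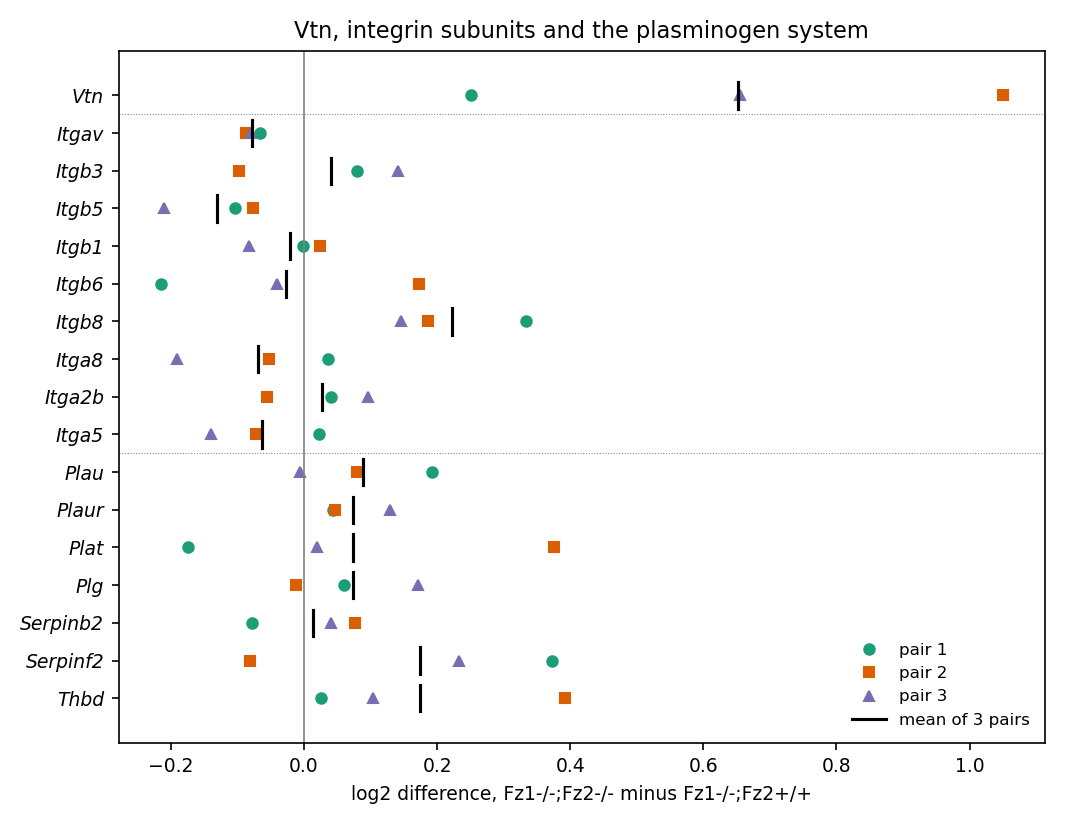
Log2 difference between double-null and Fz1-null arrays of the same number (horizontal axis) for Vtn, 9 integrin subunits and the 7 genes listed for the plasminogen system. Each pair is 1 point, with the mean of the 3 pairs as a bar. The Vtn mean of 0.65 stands to the right of the other means, which lie between -0.13 and 0.22. The Vtn point of the pair numbered 1 (0.25) falls among single pairs of other genes. Vtn was chosen for its difference, so its place is description only.

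Of the other genes tied to vitronectin by domain or function, again 0 passed. Among somatomedin B domain genes 4 of 5 were higher with a median difference of 0.04 (-0.04 without Fz1-null array 1), from Prg4, the joint lubricant lubricin (-0.10, SE 0.16), to Susd2 (0.07, SE 0.10). Genes with hemopexin-like repeats, which vitronectin also carries, were split 6 higher and 5 lower with a median of 0.02, which lay below 0 when double-null array 3 (-0.04) or Fz1-null array 1 (-0.01) or 2 (-0.02) was left out. Mmp19, a matrix metalloproteinase, had values of 6.75, 6.83 and 6.83 in double-null arrays, against 6.55, 6.62 and 6.64 in Fz1-null arrays, and was the 1 of the 11 without overlap, where 2.74% of all genes lay on the higher side (0.20, SE 0.07; limma adjusted p = 1.00, and 0.97 with the block). Terminal complement genes and their inhibitors were higher in 6 of 8 with a median of 0.05 (-0.01 without double-null array 3), among them Clu, the chaperone clusterin (0.16, SE 0.20), and C9 (0.10, SE 0.12).

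The other adhesive matrix proteins that carry or are known for RGD motifs were split 6 higher and 8 lower, near the split over all genes, of which 45.7% were higher. Their median was -0.05, and 0.007 without double-null array 1. Fn1, fibronectin, differed by -0.09 (SE 0.10), Postn, periostin, by 0.002 (SE 0.10) and Ccn1 by 0.13 (SE 0.08). Npnt, nephronectin, differed by -0.25 (SE 0.14, and 0.06 with the block) and was lower in each pair. Ibsp, bone sialoprotein, had the widest difference of the list (-2.01, SE 1.04), with -4.46 in the pair numbered 2. Tgfbi was the 1 of the 14 without overlap (0.09, SE 0.08), on the higher side, where 2.74% of all genes lay. It was named for that count after its value was seen. None of these passed (adjusted p = 1.00 for each without the block, and 0.97 or 1.00 with it).

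Markers of the cell types known to make vitronectin were set beside it, as were markers of other cells that a palate sample could hold. Over the 23 lists with 299 measured genes, 0 passed with or without the replicate block (smallest adjusted p = 1.00, and 0.62 with the block), while by unadjusted p below 0.05 there were 10 higher and 2 lower, where 0.676% and 0.181% of all genes lay. With the block 51 of them (17.1%) were below 0.05 unadjusted, against 4.12% of all genes, and since the lists were drawn up with results of these arrays known, nothing is read from that surplus. Without overlap lay 15 members on the higher side (5.02%) and 4 on the lower (1.34%), against 2.74% and 1.91% of all genes, and the shares of all genes apply to each such count below. RMA values have no 0, so a dim marker was not called absent. The correlations below are over 6 arrays that share a genotype or a number, with genotypes that do not overlap in Vtn, so they describe these arrays and were not tested.

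Pericyte genes had signals mostly above the array median and a small median difference. Of 19 measured members, 14 lay above the array median on all 6 arrays, 13 were higher and 6 lower in double-null palates, and the median log2 difference was 0.07, with pair medians of 0.01, 0.07 and 0.07. Without double-null array 2 the median was 0.01. The summed linear signal of the list was 8456 to 9922 in double-null and 8462 to 9704 in Fz1-null arrays, so the groups overlapped. Pdgfrb, the receptor that recruits pericytes, was at 10.26 in double-null and 10.42 in Fz1-null palates (-0.16, SE 0.09), and Notch3, a mural cell receptor, differed by -0.02 (SE 0.08). Rgs5, a defining pericyte gene, had values of 8.78, 9.91 and 9.34 in double-null arrays 1, 2 and 3, against 8.81, 9.36 and 8.96 in the Fz1-null arrays. Its pair differences of -0.03, 0.54 and 0.38 came in the same order as those of Vtn (mean 0.30, SE 0.27 without the replicate block and 0.11 with it). Of the 19, 2 lay higher without overlap (Cox4i2, 0.10, and Slc6a20a, 0.21) and 0 lower, against 2.74% and 1.91% of all genes. Both gaps were narrow. The lowest double-null and highest Fz1-null values were 6.932 and 6.931 for Cox4i2, and 4.381 and 4.373 for Slc6a20a. Slc6a20a was also near the floor, between percentiles 4.3 and 8.6. Kcnj8, a potassium channel of pericytes, differed by 0.11 (SE 0.08) and Abcc9, its partner, by 0.05 (SE 0.11). Tbx18, a mural cell transcription factor, differed by 0.45 (SE 0.32, and 0.17 with the block), with 1.06 in the pair numbered 2. The other members below 0 were Ifitm1 (-0.18, SE 0.11), Anpep (-0.07, SE 0.18), Cspg4 (-0.05, SE 0.31) and Mcam (-0.04, SE 0.08). Ifitm1 was lower in each pair (-0.08, -0.22 and -0.24). These members, the higher Rgs5, Kcnj8, Abcc9, Tbx18 and Cox4i2, and Alb and Afp of the liver-type list were named after their values were seen. The pericyte list's mean level and Vtn gave r = 0.48 (rho = 0.54, and r = 0.29 without the 2 arrays farthest from the median Vtn value). With the genotype means removed, r was 0.31. With the mean of each array number removed, r was 0.99, and also 0.99 for the meningeal list below. This was not particular to these lists, as r was 0.98 for the plasminogen, 0.94 for the macrophage and 0.90 for the endothelial list, and -0.93 for the RGD matrix list. The endothelial list also had a higher r before that removal (0.73). Such values rest on the pair differences alone.

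Smooth muscle genes had a median of 0.08, with 10 of 12 higher and pair medians of 0.08, -0.11 and 0.11, so they ran against Vtn in the pair where Vtn differed most. Myocd, the coactivator of the smooth muscle programme, was at 7.29, 7.62 and 6.90 in double-null arrays 1, 2 and 3, against 7.06, 6.66 and 6.67 in the Fz1-null arrays (0.47, SE 0.19). Acta2, smooth muscle actin, differed by 0.16 (SE 0.14) and Mylk, a myosin kinase, by 0.003 (SE 0.09). Endothelial genes were higher in 17 of 20 with a median of 0.06 and pair medians of 0.02, 0.16 and -0.01, and without double-null array 2 their median was -0.003. Cldn5, a tight junction claudin of vessels, read 9.19, 9.30 and 9.39 in double-null arrays against 9.09, 9.09 and 9.11 in Fz1-null arrays (0.20, SE 0.08), and Tek, the angiopoietin receptor, differed by 0.14 (SE 0.07). Both lay without overlap, where 2.74% of all genes did on the higher side, and neither passed (limma adjusted p = 1.00 for each, and 0.97 with the block).

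Neural progenitor genes split between a group near Vtn in direction and a group that was not. Of 20 measured members 13 were higher, 7 were lower and 11 lay above the array median on all 6 arrays, and the median difference was 0.09 with pair medians of 0.16, 0.26 and -0.04. The summed signal was 8109 to 9217 in double-null and 7791 to 7877 in Fz1-null arrays, without overlap. Bright members weigh most in such a sum, and Zic1, whose own groups did not overlap, is among them. The gap in the sums is therefore not read as one of the whole list. Zic1, a zinc finger factor of the dorsal neural tube and of head mesenchyme, had values of 10.18, 10.08 and 10.70 in double-null arrays 1, 2 and 3, against 9.79, 9.42 and 9.50 in the Fz1-null arrays (0.75, SE 0.17). Sox1 (0.34, SE 0.09) and Hes5, a Notch target of progenitors (0.25, SE 0.10), also lay without overlap, which makes 3 of the 20 on the higher side, where 2.74% of all genes lay, whereas Sox2, a general progenitor factor, differed by -0.002 (SE 0.14). None of these 4 passed (limma adjusted p = 1.00 for each, and 0.97 to 1.00 with the block). Of the 7 lower members, those farthest below 0 were Emx2 (-0.29, SE 0.18), Neurog1 (-0.19, SE 0.24), Otx2 (-0.16, SE 0.20) and Lhx2 (-0.16, SE 0.24). They were named after their values were seen, their groups overlapped and they did not pass either. The list's mean level and Vtn gave r = 0.81 (rho = 0.71), which became 0.30 without the 2 arrays farthest from the median Vtn value, so it rested on those arrays. With the mean of each array number removed, r was 0.84, and with the genotype means removed it was 0.57.

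Neuronal genes had no stable side. Of 20 measured members 8 were higher and 12 lower, near the split over all genes. Their pair medians were -0.34, -0.14 and 0.14 (r = -0.12 and rho = -0.03 with Vtn, and r = -0.11 with number means removed). Their median was -0.05, but 0.10 without double-null array 2, and 0.08 when Fz1-null array 1 was left out. Nefl and Nefm, neurofilament subunits, differed by -0.21 (SE 0.31) and -0.24 (SE 0.30). Floor plate and choroid genes, in which vitronectin might be looked for from its history in the neural tube, had a median of 0.02 with 7 of 11 higher, and of -0.04 without double-null array 1. Foxa2, the floor plate forkhead factor, differed by 0.16 (SE 0.08) and was the 1 of the 11 without overlap (2.74% of all genes on that side), and Spon1, the floor plate protein spondin, by -0.12 (SE 0.08). Schwann and crest glia genes had a median of 0.07 (-0.02 without double-null array 3 or without Fz1-null array 2), with 6 of 10 higher and Fabp7 at 0.14 (SE 0.29) and Erbb3 at -0.12 (SE 0.08). Meningeal genes had a median of 0.13 and were higher in 9 of 13, with pair medians of 0.05, 0.17 and 0.10 in the order of Vtn. Without double-null array 2 or 3 their median was 0.02. Slc22a6, an anion transporter, was at 7.33, 7.53 and 7.38 in double-null arrays against 7.05, 7.12 and 7.24 in Fz1-null arrays (0.28, SE 0.09) and was the 1 of the 13 without overlap, while the abundant matrix genes Bgn (0.02, SE 0.17) and Lum (0.002, SE 0.08) lay at 0.

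Genes of liver-type secreted proteins were mostly dim. Of 34 measured members 2 lay above the array median on all 6 arrays, and the defining genes Alb, serum albumin, and Afp, alpha-fetoprotein, stood between percentiles 26.2 and 34.2 and between 21.4 and 24.1 of their arrays. Signals of different probe sets do not compare as transcript levels, so these percentiles are not set against those of Vtn. In direction 30 of 34 were higher in double-null palates, by a median of 0.08, with pair medians of 0.10, -0.02 and 0.13, so the pair with the largest Vtn difference was the one with a median below 0. Their summed signal was 2661 to 3029 in double-null and 2484 to 2709 in Fz1-null arrays, which overlapped. The 2 brightest were Ttr, a thyroid hormone carrier (0.09, SE 0.12), and the nuclear receptor Hnf4a (0.14, SE 0.11). Serpinc1, antithrombin (0.17, SE 0.08), and Itih1, a heavy chain of the inter-alpha-trypsin inhibitor (0.18, SE 0.07), lay without overlap and near the floor, at 5.87 and 6.24 in double-null and 5.70 and 6.05 in Fz1-null palates. Fetub, the secreted protease inhibitor fetuin-B, lay without overlap on the lower side (-0.09, SE 0.07). These were 2 higher and 1 lower of 34, against 2.74% and 1.91% of all genes, and Fetub was named for that count after its value was seen. The list's mean level and Vtn gave r = 0.39 (rho = 0.31), and r = 0.71 without the 2 arrays farthest from the median Vtn value. With the mean of each array number removed, r was 0.54. With the genotype means removed it was -0.31, so the list did not follow Vtn upward within the genotypes.

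Epithelial genes lay opposite to Vtn. All 18 measured members were lower in double-null palates, with a median of -0.19 and pair medians of -0.04, -0.04 and -0.47, and 0 passed the test. Their summed signal was 8555 to 12007 in double-null and 10060 to 12310 in Fz1-null arrays. Krt14, a basal keratin, had values of 9.20, 8.97 and 8.69 in double-null arrays 1, 2 and 3, against 9.10, 9.33 and 9.54 in the Fz1-null arrays (-0.37, SE 0.16). Esrp2, an epithelial splicing factor, was the 1 of the 18 that lay lower without overlap (-0.22, SE 0.10), where 1.91% of all genes lay. The epithelial medians of the pairs numbered 1 and 2 were alike, while the Vtn differences in those pairs were the smallest and the largest. Palatal mesenchyme genes were lower in 11 of 13 (median -0.07), and Prrx2, a homeobox gene of craniofacial mesenchyme, lay lower without overlap (-0.22, SE 0.08; limma adjusted p = 1.00, and 0.97 with the block). So did Osr2, a zinc finger factor of palate growth (-0.27, SE 0.14), named after its value was seen, which makes 2 of 13 where 1.91% of all genes lay.

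Of the remaining lists, macrophage genes were higher in 10 of 12 (median 0.06), among them the microglial and macrophage adaptor Tyrobp (0.19, SE 0.11), and erythroid genes in 7 of 8 (median 0.09), with embryonic globin Hbb-y at 0.05 (SE 0.08). Cartilage and bone genes were lower in 7 of 9 (median -0.06, and 0.01 without Fz1-null array 2), with Alpl, the bone phosphatase, at -0.38 (SE 0.20) and cartilage collagen Col2a1 at 0.05 (SE 0.30). Skeletal muscle genes were higher in 15 of 15 (median 0.10) and Hox genes in 13 of 13 (median 0.42), with pair medians of 0.78 and 0.92 in the pair numbered 3. No marker list had a median difference as large as that of Vtn, and 7 of the 299 listed genes differed as much as Vtn or more in either direction. Vtn was chosen for its large difference, so nothing is read from this comparison of sizes.

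**Figure D3:**
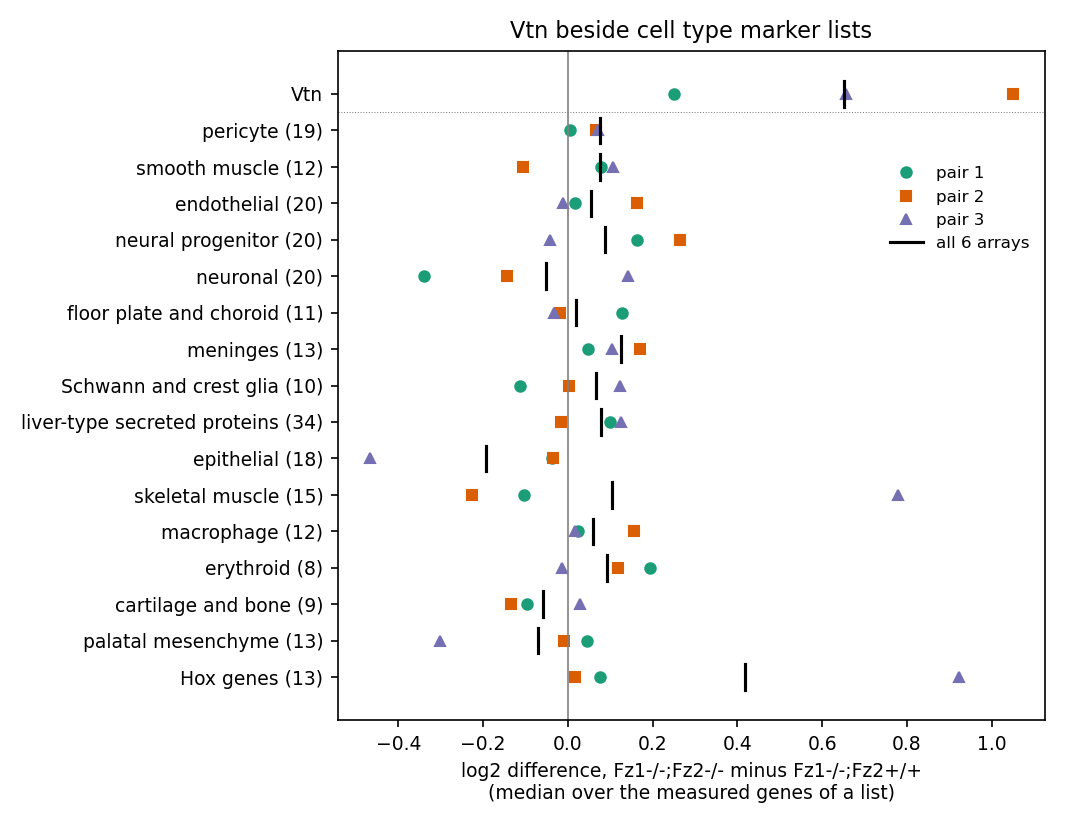
Log2 difference between double-null and Fz1-null arrays of the same number (horizontal axis) for Vtn and, as the median over the measured genes (their number in brackets), for 16 cell type lists, 1 point a pair and a bar for all 6 arrays. The points of Vtn (0.25, 1.05 and 0.66) lie right of those of the pericyte, neural progenitor and liver-type lists in each pair. Vtn was chosen for its difference, so its place is description only. The skeletal muscle and Hox points of the pair numbered 3 stand out at 0.78 and 0.92.

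The genes whose values followed Vtn most closely were looked for among 2120 genes with a mean log2 value of at least 6 and a range over the arrays of at least 0.5. The closest was Rmst, a long non-coding RNA known from neural differentiation, with values of 7.02, 7.37 and 7.05 in double-null arrays 1, 2 and 3, against 6.84, 6.74 and 6.76 in the Fz1-null arrays (Pearson r = 0.96 and rho = 1.00 over 6 arrays). Its values put the 6 arrays in the same order as Vtn did, although 1 of its 2 probe sets was higher and the other was not. The means were 7.15 ± 0.20 in double-null and 6.78 ± 0.05 in Fz1-null palates (SD, n = 3 each), a difference of 0.37 (SE 0.11). Next came Cd83, an immune cell surface protein (r = 0.85, difference 0.34), Gjb6, a connexin (0.82, 0.35), Foxc2, a forkhead factor of mesenchyme and vessels (0.82, 0.30), and Myocd (0.82, 0.47). Itih5, a secreted protein that binds hyaluronan (r = 0.82, difference 0.24), the non-coding transcript C130071C03Rik (0.81, 0.54), Zic1 (0.80, 0.75), the non-coding Crnde (0.79, 0.22) and the septin Septin4 (0.79, 0.29) completed the 10. The next gene outside them had r = 0.78. With the genotype means removed, r was 0.86 for Rmst and 0.16 for Zic1, so Zic1 followed Vtn by genotype and hardly within it.

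At the opposite end stood Col17a1, a hemidesmosomal collagen of basal epithelium, with values of 7.35, 7.13 and 7.08 in double-null arrays 1, 2 and 3, against 7.36, 7.85 and 7.87 in the Fz1-null arrays (r = -0.91, difference -0.51). After it came Gm11627, a non-coding gene on chromosome 11 like Fzd2 and Vtn (r = -0.89, difference -0.54), Msx2, a homeobox gene of craniofacial mesenchyme and epithelium (-0.87, -0.32), Fzd2 itself (-0.84, -1.25) and Serpinb7, an epithelial protease inhibitor (-0.82, -0.33). With the genotype means removed, r with Fzd2 was 0.43, and with the number means removed it was -0.86. A link between the levels of Fzd2 and Vtn within a genotype was not tested, with 3 arrays in each. Likeness to a gene whose groups do not overlap favours genes of that kind, and 4 of the 10 lay higher and 5 of the 5 lower without overlap. Among the 2120 genes searched 16 (0.755%) lay higher and 13 (0.613%) lower without overlap, and nothing is read from the surplus, which the search itself favours. Fzd2 passed the test with the block, and none of the other 14 genes did with or without it (smallest limma adjusted p 1.00, and 0.20 for Gm11627 with the block).

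**Figure D4:**
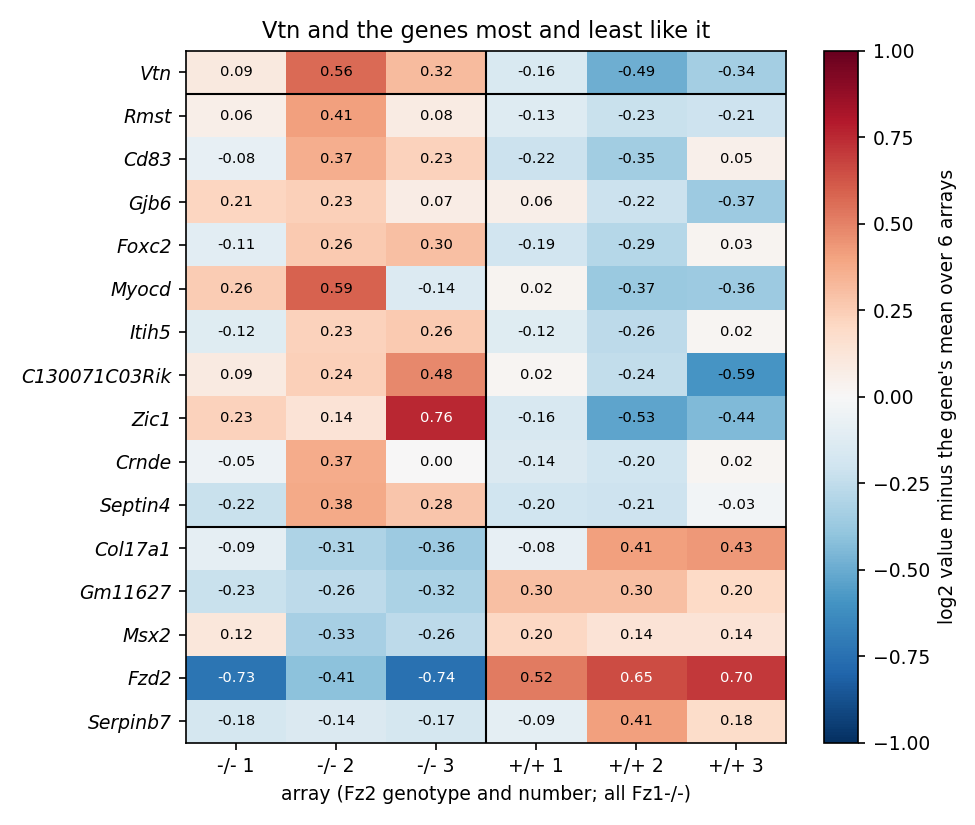
Log2 value minus the gene's own mean over the 6 arrays (colour and printed number) for Vtn, the 10 genes with the highest and the 5 with the lowest correlation with it (rows), in the 3 double-null and then the 3 Fz1-null arrays (columns). Double-null array 2 and Fz1-null array 2 carry the extremes of Vtn, and Rmst has the same order of arrays, while Fzd2 is low in each double-null array.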

How the data were processed

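Total RNA of 6 palate samples was hybridised to Affymetrix Mouse430_2 arrays, per the labels. The authors deposited log2 values per probe set, made with RMA per the submitters' processing notes; its version is not given in the sources used here. Array medians were 7.22 to 7.27, and interquartile ranges were 2.76 to 2.94. Depth does not apply to arrays, and their number limits the precision. The authors' deposited table holds a log2 fold change, a signed fold change treated as a score, and an unadjusted p-value, per the file headers. Its log2 values equalled the group mean differences with the sign turned (largest gap 4.93e-08).

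Of 45101 probe sets, 64 controls were left out. A single symbol was given for 34945, several for 932, and 9160 were unnamed. Symbols were updated by Entrez identifier to RefSeq (GRCm38.p6; 34741 matched). Where a gene had several single-symbol probe sets, the one of highest mean stood for it.

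Differences are double-null minus Fz1-null, from limma 3.58.1 in R 4.3.3 with a single genotype term on the 6 arrays, and p-values were adjusted over 45037 probe sets (Benjamini-Hochberg, threshold 0.05). This fit was run on simulated data whose noise was independent between arrays. That differs from these arrays, so it does not test the fit on paired arrays. Deviations from group means correlated at 0.63, 0.44 and 0.63 between arrays of the same number, so same-numbered arrays were treated as pairs, a reading of the data and not of the labels, and the number was also fitted as a block (replicate block).

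Vtn and the 23 lists (329 genes, 299 measured) were chosen with earlier results of these data known. Text genes were, by rule, all Vtn probe sets, all integrins and plasminogen system genes, up to 3 members with the smallest p and 2 with the highest mean of each other list, 3 neighbours on each side, and the 10 most and 5 least Vtn-like genes. Others are marked where named. Alternatives were other scalings, log2 of the value plus 32, filters, moderation settings, the block, other likeness measures and leaving out each array.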

Additional observations from a re-analysis of the deposited data

How the results depend on the processing

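The Vtn difference stayed between 0.53 and 0.77 when an array was left out. It was 0.68 after repeated quantile normalisation, 0.65 with centring on array medians, 0.60 as log2 of the value plus 32 and 0.56 as the mean of both probe sets, each within 1 SD of the reported value. The replicate block cannot change a difference of group means in this balanced design, so its 0.65 is no check. The count of probe sets past the threshold was 0 under each alternative, leaving out each array included, except the replicate block with 3, all of Fzd2. Of the list members, 0 passed under each alternative run on them. The genes most like Vtn depended on the measure: of the 10, Spearman correlation shared 4, number means removed (the replicate block) 3 and genotype means removed 1, and leaving out an array shared 1 (without Fz1-null array 2) to 9 (without double-null array 1). Of the 23 list medians, 12 kept their sign under all 11 alternatives, the pericyte, neural progenitor, liver-type and epithelial lists among them. The hemopexin-like list kept it under 8, the neuronal and the Schwann and crest glia lists under 9, and the somatomedin B, RGD matrix, terminal complement, endothelial, floor plate and choroid, skeletal muscle, cartilage and bone, and sex-linked lists under 10. Each turn came from leaving out 1 array. The replicate block, counted among the 11, could not turn a sign. With 3 arrays a group, differences of the size seen in most listed genes could not be told from the spread.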
